A study of Homo sapiens with 34 samples.

Results

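The first step of cardiac differentiation was read in 4 libraries of WT H1 cells, 2 from undifferentiated cells at day 0 and 2 from cells at day 2, chosen by their labels from the 34 samples (15 groups) of the series. H1 is an established human embryonic stem cell (ESC) line. WT here is not an untouched line: by the study's methods these cells had been infected with a control lentivirus, either without an shRNA or with one that targets GFP, and which library had which is not given. The knockdown lines of the series, compared at the end, are named for the gene that their shRNA targets (NKX2-5, ZEB2 or ZNF503). At day 0 all cells were kept in E8 medium. To differentiate them, cells were moved to a basal medium made as E8 without FGF2, TGFβ and insulin and with a lipid concentrate, and CHIR99021, an inhibitor of the kinase GSK3β, was present for the first day. IWP2, which blocks WNT secretion, was given from day 2, and whether the day 2 cells had met it is not given in the sources used here. CHIR99021, the loss of the 3 factors from the medium and the time in culture came together in the day 2 cells, so their parts in a change cannot be told apart. The study calls its replicates biological, but no label ties them to separate cultures, so p-values measure the spread between these libraries.

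ESCs hold a network of transcription factors around POU5F1, NANOG and SOX2 that keeps them undifferentiated. In the embryo, WNT and NODAL signals start the primitive streak, a transient structure whose cells (mesendoderm) give rise to mesoderm, from which the heart comes, and to definitive endoderm. Blocking GSK3β lets β-catenin accumulate as a WNT signal would, and TCF and LEF proteins then carry it to WNT target genes, while SMAD2 or SMAD3 with SMAD4 and FOXH1 do the same for NODAL.

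Counts over 1 RefSeq row per gene summed to 38765452 and 39303561 in the day 0 libraries and to 28269544 and 14629094 in the day 2 libraries, so day 2 replicate 2 was the shallowest. Replicates differed by more than counting noise, with a chi-square statistic per gene of 5.13 at day 0 and 5.42 at day 2 (about 1 if only counting noise acted), and their levels had a Spearman correlation across genes of 0.997 and 0.995. Levels are given in CPM, counts scaled to a common library total (edgeR's cpm, after TMM scaling), for replicates 1 and 2 in that order. A gene at 0 counts at day 0 could be at up to 0.0775 CPM and one at 0 at day 2 at up to 0.142 CPM (3 counts, mean of 2 libraries, counting error only). Fold changes are day 2 over day 0 on the log2 scale, with their standard error (SE). Adjusted p-values are from edgeR's quasi-likelihood test, adjusted by the Benjamini-Hochberg method across the 17215 genes that could be tested, and fitted on 8 WT libraries of days 0, 2, 6 and 10. A gene is called when it differed by at least 4-fold at 10% FDR, the threshold the study used at day 2, and is said to have risen or fallen when its adjusted p was under 0.05. CPM does not correct for gene length, so levels are compared between libraries and not between genes. In bulk RNA a change in the share of cells that express a gene and a change in RNA per cell cannot be told apart.

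Within 2 days, 906 genes were called higher (5.26% of those tested) and 535 lower (3.11%), or 8.37% in all. The counts called in each list below are to be read beside these shares. At 5% FDR with no fold threshold 3607 genes rose (21%) and 3983 fell (23.1%), so that 47.5% of the changed genes were higher, a share that was 59.9% when libraries were scaled by their totals alone. With any 1 of the 4 libraries left out, 2201 to 2415 genes rose and 2577 to 2695 fell, the fewest rises without day 0 replicate 1 (2310 without day 0 replicate 2) and the fewest falls without day 2 replicate 2 (2607 without day 0 replicate 1). Scaling by totals alone shifted the median of all genes by 0.13 on the log2 scale. The day 0 and day 2 libraries did not overlap in 901 of the 906 genes called higher and in all 535 called lower. These genes were called on the same libraries, so their separation follows largely from that choice and adds nothing to the calls. Most genes called higher started from little: 631 had a day 0 mean under 1 CPM, and 83 had no count in either day 0 library. Of the genes called lower, 339 had a day 2 mean under 1 CPM and 64 had no count at day 2. Genes called higher took 0.278% and 0.276% of the counts at day 0 and 3.09% and 3.20% at day 2. By RefSeq type, 789 of 15240 protein coding genes tested (5.18%) and 84 of 940 lncRNAs (8.94%) were called higher, and 504 (3.31%) and 21 (2.23%) lower.

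**Figure D1:**
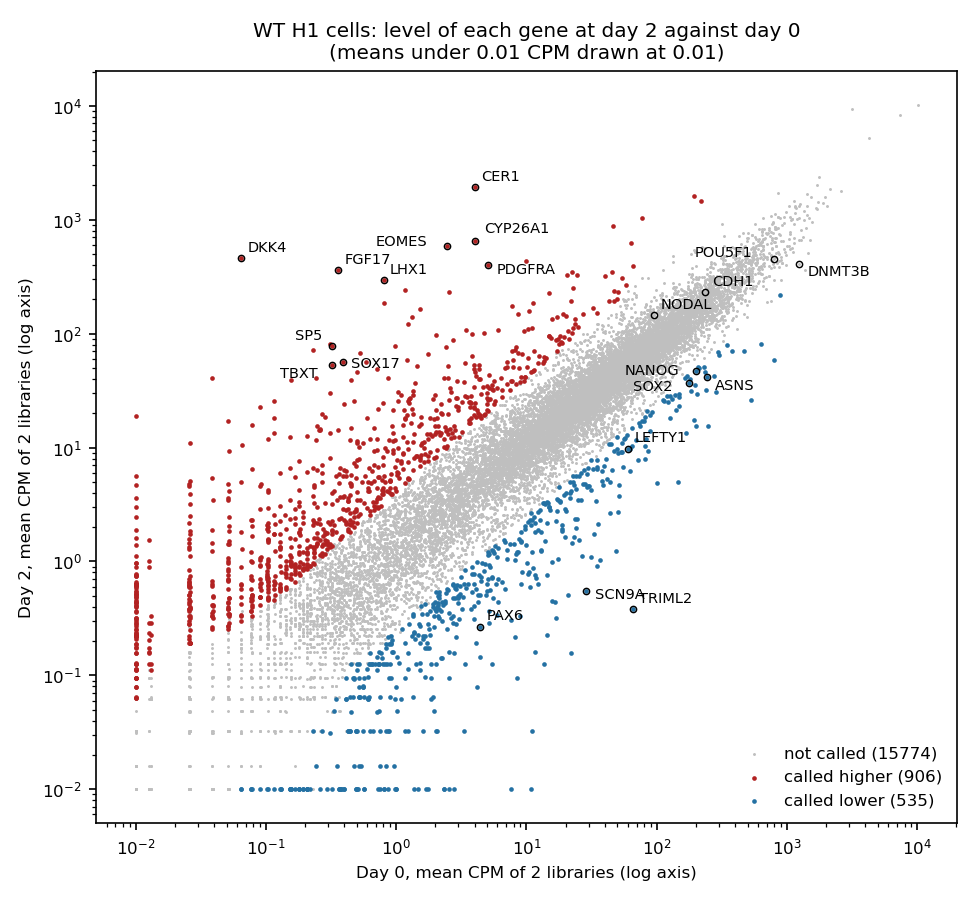
Mean CPM of each of the 17215 genes at day 0 (x, log axis) and day 2 (y, log axis) in WT cells, with the 906 genes called higher in red, the 535 called lower in blue and 15774 others in grey. DKK4, FGF17 and CER1 lie far above the diagonal, CDH1 and NODAL near it, and TRIML2 and PAX6 far below it.

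The label of the day 0 cells was checked first, on genes that mark ESCs. POU5F1 was at 790 and 803 CPM at day 0, NANOG at 206 and 191 CPM, and SOX2 at 184 and 172 CPM. At day 2 POU5F1 was at 452 and 453 CPM, NANOG at 47.4 and 46.6 CPM and SOX2 at 40.0 and 33.6 CPM. All 3 were therefore present at day 0 and lower in both day 2 libraries, and none was lost by day 2. LIN28A, which binds RNA, fell little, from 1911 and 1866 to 1378 and 1400 CPM (log2 fold change -0.44, SE 0.11, adjusted p = 0.00923), a fall that missed 5% FDR without any 1 of the 4 libraries (adjusted p from 0.0511 to 0.0727). L1TD1, another RNA-binding protein, fell by 1.51 on the log2 scale and DPPA4, a chromatin protein, by 1.31.

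The pluripotency list held 28 genes tested, of which 8 were called lower and 3 higher, against 3.11% and 5.26% of all genes, and 17 fell and 5 rose, against 23.1% and 21% of all genes. The median log2 fold change was -1.21, and -0.01 over all genes. The genes called lower were NANOG, SOX2, PRDM14, DPPA3, UTF1, TFCP2L1, NR5A2 and the noncoding RNA ESRG. With library totals alone 5 were called lower, since NANOG (-1.93), NR5A2 (-1.93) and ESRG (-1.90) then fell by less than 4-fold. PRDM14, which keeps human ESCs undifferentiated, went from 65.9 and 63.7 to 11.2 and 9.22 CPM (log2 fold change -2.66, SE 0.23, adjusted p = 2.76e-05). NANOG fell by 2.08 (SE 0.11) and SOX2 by 2.27 (SE 0.12) on the log2 scale, while POU5F1 fell by 0.81 (SE 0.09), short of the 4-fold threshold. DPPA3 had 321 counts at day 0 and 3 at day 2, a ratio of 65.0 (95% exact interval 22.1 to 317). Its log2 fold change was -5.02 without day 2 replicate 1 and -6.83 without day 2 replicate 2. ESRG, close to the threshold at -2.04, was not called without day 0 replicate 2 (-1.98). The 3 members called higher, OTX2, TBX3 and KLF2, also act outside pluripotent cells. OTX2, a homeobox gene of anterior streak and head ectoderm, went from 22.1 and 23.8 to 251 CPM in each day 2 library (log2 fold change 3.45, SE 0.12). KLF2 had no count at day 0 and 11 at day 2, at least 3.06-fold higher.

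Transcription factors of the primitive streak and early mesoderm moved furthest as a group. Of 20 tested, 15 were called higher and 1 lower, and the median log2 fold change was 4.40. EOMES, a T-box factor needed for endoderm and cardiac mesoderm, went from 2.27 and 2.64 to 565 and 616 CPM, and LHX1, a LIM homeobox factor of the anterior streak, from 0.965 and 0.64 to 278 and 316 CPM. TBXT (Brachyury), the T-box factor that defines the streak, went from 0.365 and 0.282 to 51.5 and 53.8 CPM. In all 3 genes the libraries of the 2 days were far apart and the replicates close. Their log2 fold changes were 7.91 for EOMES (SE 0.17, adjusted p = 2.34e-09), 8.52 for LHX1 (SE 0.20, adjusted p = 2.8e-09) and 7.33 for TBXT (SE 0.25, adjusted p = 1.2e-07). In GRCh37, the build of the counts, EOMES lies on chromosome 3 from 27757440 to 27764202, LHX1 on chromosome 17 from 35294084 to 35301912 and TBXT on chromosome 6 from 166571144 to 166582188.

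The paired-type homeobox gene MIXL1 was at 1.83 and 2.25 CPM at day 0 and at 96.1 and 99.2 CPM at day 2 (log2 fold change 5.58, SE 0.43). GSC, the organizer homeobox gene, was at 1.93 and 1.59 CPM and then at 68.1 and 63.1 CPM (log2 fold change 5.22, SE 0.20). GATA6, a zinc finger factor of endoderm and heart, was at 0.443 and 0.615 CPM and then at 69.5 and 65.1 CPM (log2 fold change 6.98, SE 0.21). These rises were of the same order as those of the T-box genes, and GATA6 overlaps an antisense gene, GATA6-AS1, whose reads cannot be told apart from its own where strand was not used in counting. Factors of later or more posterior mesoderm rose too. TBX6, of paraxial mesoderm, was at 0.60 and 0.41 CPM at day 0 and 11.9 and 10.9 CPM at day 2, and MESP1, the bHLH factor of cardiac mesoderm, at 0.417 and 0.41 CPM and then at 6.04 and 6.42 CPM. Their log2 fold changes were 4.49 (SE 0.46) and 3.90 (SE 0.43). EVX1, a posterior streak homeobox gene, had no count at day 0 and was at 3.87 and 5.48 CPM at day 2, at least 60.3-fold higher. The member called lower was NKX1-2, a homeobox gene of the caudal epiblast, which went from 19.1 and 15.7 to 0.968 and 1.12 CPM (log2 fold change -4.07, SE 0.28). Of the caudal genes CDX2 and CDX4 neither passed the test: CDX2 had 4 counts at day 0 and 12 at day 2 (adjusted p = 0.154), and CDX4 was at means of 2.17 and 0.858 CPM (adjusted p = 0.0533).

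**Figure D2:**
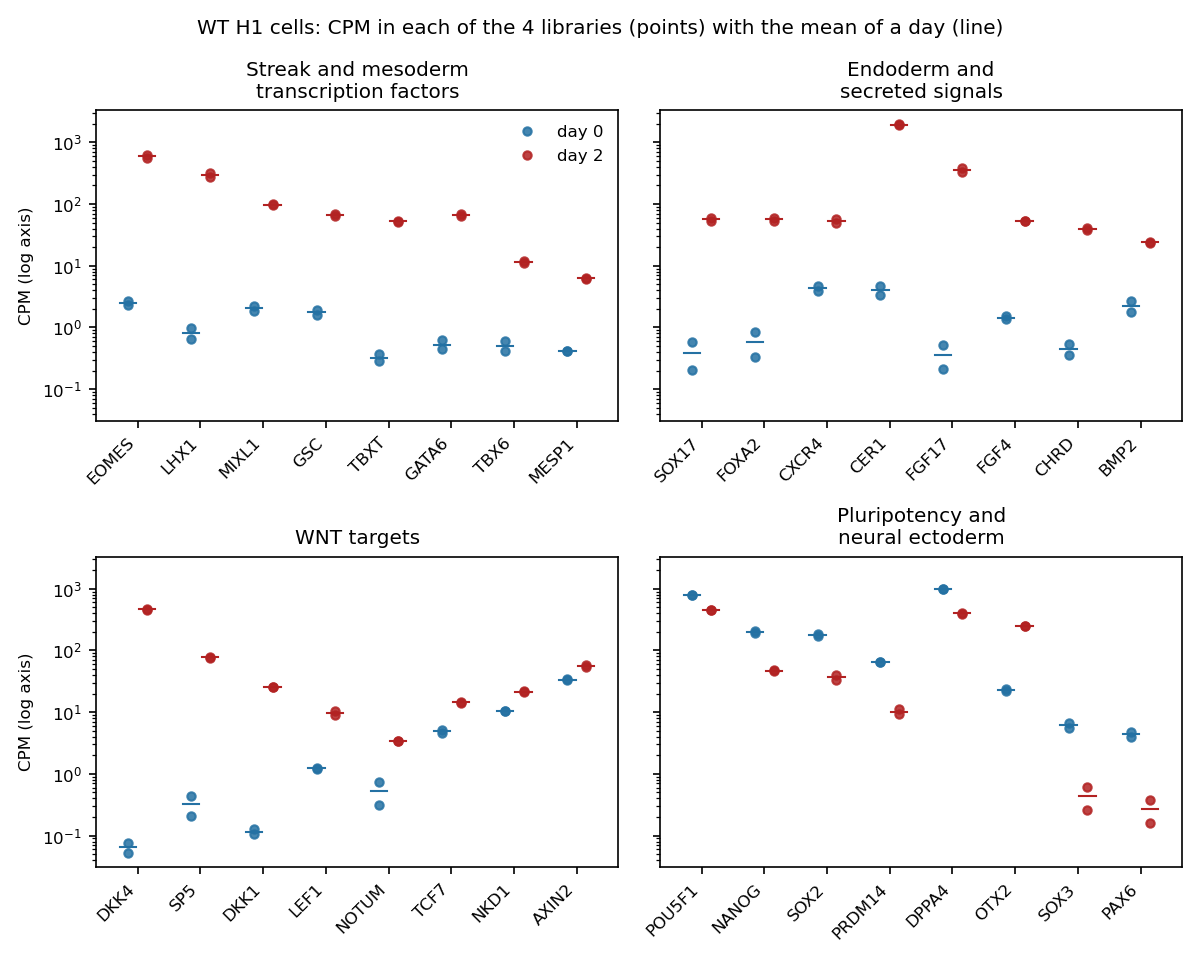
CPM (log axis) of 32 genes in 4 panels in each WT library, day 0 in blue and day 2 in red, with a line at the mean of each day. In the genes of the streak, endoderm and secreted signal panels the days are separated by more than the replicates, and among WNT targets the separation runs from DKK4 (log2 fold change 12.70) to AXIN2 (0.74).

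Genes that mark definitive endoderm rose beside those of mesoderm. Of 12 endoderm genes tested, 6 were called higher (SOX17, FOXA2, PRDM1, CXCR4 and HHEX among them) and 1 lower (HNF4A), with a median log2 fold change of 2.29. SOX17, an HMG box factor of endoderm, went from 0.574 and 0.205 to 53.8 and 58.9 CPM, and FOXA2, a forkhead factor of endoderm and the anterior streak, from 0.835 and 0.333 to 53.8 and 59.4 CPM. Day 0 replicate 1 held more of both genes than day 0 replicate 2, and the day 2 libraries lay far above both. The log2 fold change was 7.16 (SE 0.35) for SOX17 and 6.59 (SE 0.51) for FOXA2, and without day 0 replicate 1 they were 8.06 and 7.38. CXCR4, a chemokine receptor used to sort endoderm, rose from 4.75 and 3.89 to 49.7 and 56.9 CPM and HHEX, a homeobox factor of anterior endoderm, from 4.83 and 3.82 to 49.1 and 48.5 CPM. HNF4A, a factor of later liver and gut, had 29 counts at day 0 and none at day 2 (adjusted p = 0.06), a call lost without either day 2 library (adjusted p = 0.136 without replicate 2). The products of later endoderm were at or near 0: AFP had means of 0.416 and 0.0323 CPM and TTR of 0.0645 and 0.0311 CPM.

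The NODAL pathway changed in both directions, with the largest change in a secreted inhibitor. Of 18 genes tested, 2 were called higher (11.1%, against 5.26% of all genes) and 3 lower (16.7%, against 3.11%), and 5 rose and 9 fell. NODAL itself, the ligand that patterns the streak, was already at 100.0 and 91.0 CPM at day 0 and was at 145 and 147 CPM at day 2 (log2 fold change 0.61, SE 0.19, adjusted p = 0.0222). This small rise missed 5% FDR when any 1 of the 4 libraries was left out, with adjusted p from 0.0859 to 0.154. CER1 (Cerberus), a secreted protein that binds NODAL, BMP and WNT ligands, went from 3.34 and 4.76 to 1900.4 and 1950.2 CPM, a 474-fold rise (log2 fold change 8.89, SE 0.18, adjusted p = 2.34e-09). LEFTY1, an inhibitor that NODAL signalling induces, went the other way, from 66.7 and 54.5 to 9.49 and 10.0 CPM, and LEFTY2 from 20.0 and 16.2 to 2.91 and 3.86 CPM. The 2 LEFTY genes are near-identical neighbours on chromosome 1, so how their reads were split is uncertain. Together with INHBA, an activin subunit with 39 counts at day 0 and none at day 2 (at least 3.56-fold lower; fitted log2 fold change -6.79, and -6.12 without day 0 replicate 1), they were the members called lower. The log2 fold changes were -2.64 (SE 0.32) for LEFTY1 and -2.44 (SE 0.27) for LEFTY2. CFC1, a co-receptor for NODAL, had 1 count at day 0 and 42 at day 2, a ratio of 69.1 (95% exact interval 11.7 to 2794), and its fitted log2 fold change ran from 4.87 to 7.51 with 1 day 0 library left out. Among the transducers FOXH1 rose by a log2 fold change of 1.24, while SMAD3 fell by 1.19 and SMAD7, the inhibitory SMAD, by 1.39.

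WNT ligands and WNT targets were then read, since the protocol starts from GSK3β. Of 13 WNT ligands and R-spondins tested, 6 were called higher, 8 rose and none fell, and 10 further members had too few counts to test. WNT3A had no count at day 0 and was at 3.68 and 3.49 CPM at day 2, at least 46.2-fold higher. WNT3, a ligand of the posterior epiblast, went from 18.6 and 15.1 to 59.6 and 65.8 CPM (log2 fold change 1.90, SE 0.16, adjusted p = 1.24e-05), and WNT8A from 0.104 and 0.154 to 1.55 and 1.43 CPM. RSPO3, which strengthens WNT signals by holding ubiquitin ligases off their receptors, went from 0.104 and 0.102 to 3.39 and 2.55 CPM (log2 fold change 4.82, SE 0.28). All 4 were higher in each day 2 library than in any day 0 library. The rises of WNT4 and WNT11, at day 2 means of 1.84 and 1.67 CPM, each fell under 4-fold when day 2 replicate 2 was left out (log2 fold changes of 1.79 and 1.81), and WNT11 also without day 0 replicate 2 (1.76). The 2 genes had log2 fold changes of 2.45 and 2.46 over all libraries, WNT11 reached 3.83 without day 0 replicate 1 and 3.09 without day 2 replicate 1, and WNT4 missed 5% FDR without day 0 replicate 2 (adjusted p = 0.0514). Without day 0 replicate 1, WNT3 passed the 4-fold threshold (2.04).

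Of 19 WNT targets and feedback genes tested, 5 were called higher (DKK4, SP5, DKK1, LEF1 and NOTUM) and 1 lower (MYC), and 10 rose and 3 fell (median log2 fold change 0.74). The secreted WNT inhibitor DKK4 went from 0.0522 and 0.0768 to 457 and 466 CPM, or from 5 counts in both day 0 libraries to 21642 at day 2. This was the largest rise of all genes tested (log2 fold change 12.70, SE 0.28, adjusted p = 2.8e-09). DKK1, of the same family, went from 0.104 and 0.128 to 25.2 and 25.5 CPM (log2 fold change 7.71, SE 0.36), and SP5, a zinc finger repressor downstream of WNT, from 0.443 and 0.205 to 76.0 and 79.0 CPM (log2 fold change 7.88, SE 0.27). Without day 0 replicate 1 the SP5 value was 8.52. AXIN2 and NKD1, intracellular brakes on the pathway that are widely used as its readout, were expressed before and rose far less. AXIN2 was at 33.3 and 34.0 CPM at day 0 and 54.7 and 58.0 CPM at day 2 (log2 fold change 0.74, SE 0.17, adjusted p = 0.00496), and NKD1 at 10.4 and 10.5 CPM and then at 21.6 and 21.4 CPM (1.04, SE 0.20). LEF1 rose from 1.20 and 1.25 to 8.91 and 10.6 CPM, and NOTUM, which removes a lipid from WNT ligands, from 0.313 and 0.743 to 3.45 and 3.43 CPM (2.69, and 3.43 without day 0 replicate 2). TCF7L1, the TCF that represses targets in ESCs, was instead at 26.9 and 27.5 CPM and then at 27.1 and 35.3 CPM, with overlapping libraries (adjusted p = 0.461). The oncogene MYC went from 69.3 and 70.5 to 11.6 and 11.8 CPM (log2 fold change -2.58, SE 0.17), and CCND1, cyclin D1, fell by 0.87.

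The sequences before 3 of these genes are shown because their windows hold letters that the factors of the 2 pathways bind. Windows run from 250 bases before to 50 bases from the RefSeq start site on the gene's strand, in GRCh38.p14, a later build than that of the counts. They were searched on both strands, and capitals mark matches. The letters for TCF and LEF proteins were CTTTGAT. For FOXH1, which works beside the SMADs, they were TGTNNATT. Members of the T-box family were searched as GGTGTGA, the octamer of POU factors as ATGCAAAT and the GATA factors as AGATAA, and none of these strings contains another, though matches can share bases. The SP5 window, chr2:170715087-170715386 on the plus strand, holds a match for TCF and LEF whose first base is at -109 from the start site, for FOXH1 at -154 and, on the other strand, for GATA at -227. The MIXL1 window, chr1:226223414-226223713 on the plus strand, holds a match for TCF and LEF at -76 and for FOXH1 at -249. The CER1 window, chr9:14722684-14722983 on the minus strand, holds FOXH1 matches at -154, on the other strand, and at -88.
SP5: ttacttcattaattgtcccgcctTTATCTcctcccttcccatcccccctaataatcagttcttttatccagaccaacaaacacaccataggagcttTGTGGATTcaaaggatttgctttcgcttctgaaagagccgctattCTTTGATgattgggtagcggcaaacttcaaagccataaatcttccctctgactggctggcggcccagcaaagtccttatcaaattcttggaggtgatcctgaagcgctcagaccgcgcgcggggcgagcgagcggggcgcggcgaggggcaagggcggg
MIXL1: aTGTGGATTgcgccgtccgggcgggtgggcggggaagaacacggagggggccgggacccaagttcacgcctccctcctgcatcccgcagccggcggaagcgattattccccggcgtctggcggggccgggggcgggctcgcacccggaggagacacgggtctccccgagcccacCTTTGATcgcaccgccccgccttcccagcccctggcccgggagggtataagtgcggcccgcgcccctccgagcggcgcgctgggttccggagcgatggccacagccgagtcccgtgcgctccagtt
CER1: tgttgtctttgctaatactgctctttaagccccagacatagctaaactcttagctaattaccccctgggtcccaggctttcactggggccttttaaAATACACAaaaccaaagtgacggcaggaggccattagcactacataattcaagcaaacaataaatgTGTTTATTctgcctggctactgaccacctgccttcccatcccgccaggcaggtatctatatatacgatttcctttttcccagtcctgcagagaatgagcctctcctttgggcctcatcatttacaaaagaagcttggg
Windows were found for 104 of the 150 genes chosen to be named and for 13062 of the 17215 genes tested. Among the 652 windows of genes called higher, 2.91% held the TCF and LEF letters, against 1.49% of all 13062 and 1.84% of the 380 windows of genes called lower. For FOXH1 the shares were 9.05%, 6.09% and 6.32%, and for GATA 9.82%, 6.04% and 8.42%. The T-box letters were in 3.07%, 2.92% and 2.37%, and the octamer in 1.69%, 1.56% and 3.16%. These shares were not tested, and a match of this length is neither a binding site nor a cause.

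FGF signals drive cells out of the streak, and FGF2 was taken from the medium. Of 31 FGF ligands, receptors and feedback genes tested, 3 ligands were called higher (FGF17, FGF4 and FGF10) and 1 lower (FGF16, with 44 counts at day 0 and none at day 2, at least 4.01-fold lower, adjusted p = 0.0536 without day 2 replicate 1). These are 9.68% and 3.23% of the list, against 5.26% and 3.11% of all genes. FGF17, a ligand of the FGF8 subfamily, went from 0.209 and 0.512 to 334 and 383 CPM, a log2 fold change of 9.94 (SE 0.34, adjusted p = 4.05e-08) that was 10.70 without day 0 replicate 2. FGF4, a ligand of the epiblast and streak, went from 1.51 and 1.38 to 52.1 and 52.8 CPM (log2 fold change 5.17, SE 0.21). FGF10 reached 1.68 and 1.81 CPM, with a log2 fold change of 3.70 that ran from 3.04 to 4.92 with 1 day 0 library left out. In all 3 genes each day 2 library was above each day 0 library. FGF8, the ligand needed for mesoderm to leave the streak, was at 8.09 and 8.22 CPM at day 0 and at 6.36 and 3.61 CPM at day 2 (log2 fold change -0.67, adjusted p = 0.0832), and without day 2 replicate 1 its fall passed the test (-1.19, adjusted p = 0.0322). The cells' own FGF2 fell by 1.60 on the log2 scale. Receptors moved apart, with FGFR3 up by a log2 fold change of 1.42 and FGFR4 down from 40.5 and 42.0 to 11.9 and 11.5 CPM (-1.82, SE 0.29). Feedback genes did not move together either: SPRY4 rose from 174 and 183 to 316 and 351 CPM, SPRY1 fell by 1.23 on the log2 scale, and DUSP6, the phosphatase of ERK, went from 303 and 307 to 230 and 228 CPM (adjusted p = 0.0558). The list's median was -0.09.

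BMP signals pattern the streak from its posterior side and are opposed by secreted antagonists. Of 23 genes tested, 4 were called higher (CHRD, BMP2, MSX1 and MSX2) and 2 lower (BMP6 and NOG), and 11 rose and 4 fell. Those called are 17.4% and 8.70% of the list, against 5.26% and 3.11% of all genes. The antagonist CHRD (chordin) went from 0.548 and 0.358 to 37.4 and 41.6 CPM (log2 fold change 6.43, SE 0.25, adjusted p = 7.39e-08). The ligand BMP2 went from 1.75 and 2.66 to 23.5 and 24.5 CPM (log2 fold change 3.44, SE 0.19), and BMP4, the ligand most used to induce mesoderm, from 5.06 and 4.89 to 10.8 and 8.97 CPM (1.00, SE 0.14). Ligands and antagonists thus rose in the same libraries. NOG (noggin), a further antagonist, had 47 counts at day 0 and 3 at day 2, a ratio of 9.52 (95% exact interval 3.06 to 47.8), and BMP6 had 76 and 2 counts, a ratio of 23.1 (6.18 to 194). Without day 2 replicate 1, BMP6 was no longer called (log2 fold change -2.94, adjusted p = 0.11) and NOG missed 5% FDR (adjusted p = 0.0551), while NOG was at -2.44 without day 0 replicate 2 and BMP6 at -7.83 without day 2 replicate 2. Of the immediate targets, ID3 rose by a log2 fold change of 1.54, while ID1 was at 77.7 and 73.3 CPM and then at 62.1 and 66.4 CPM (adjusted p = 0.102).

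Streak cells leave the epithelium through an epithelial to mesenchymal transition, in which SNAI and ZEB repressors shut off CDH1 and CDH2 replaces it. No epithelial gene of 10 tested was called, and 3 fell (CLDN6, GRHL2 and ESRP2), a share near the 23.1% of all genes that fell. All 10 nonetheless had a negative log2 fold change, as did 8711 of the 17215 genes tested. Their median was -0.38, against -0.01 over all genes. CDH1 (E-cadherin) was at 247 and 226 CPM at day 0 and at 229 and 231 CPM at day 2, with overlapping libraries (log2 fold change -0.04, SE 0.28, adjusted p = 0.929). The direction of this value turned with library totals alone (0.11) and without day 0 replicate 1 (0.02). EPCAM, another epithelial adhesion protein, was at 205 and 192 CPM and then at 177 and 181 CPM (adjusted p = 0.574). On the mesenchymal side 4 of 13 genes were called higher (ZEB2, SNAI2, TWIST1 and ZEB1), and 8 rose and 1 fell, with a median log2 fold change of 1.62. CDH2 (N-cadherin) went from 135 and 132 to 476 and 484 CPM (log2 fold change 1.85, SE 0.11, adjusted p = 8.8e-07). SNAI2 went from 0.261 and 0.205 to 4.78 and 4.67 CPM (4.32, SE 0.33), and SNAI1 rose by 1.88. TWIST1, on 2 and 21 counts, had a log2 fold change of 3.96 that ran from 3.05 to 6.61 with 1 library left out. The gene that fell was VIM (vimentin), which fell by 1.00 on the log2 scale (SE 0.11), from 58.0 and 49.0 to 25.8 and 27.6 CPM. At day 2, CDH2 had thus risen while CDH1 did not pass the test.

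ZEB2, one of the genes that the series targets, had no count in day 0 replicate 1 and 9 in replicate 2, and was at 18.2 and 17.9 CPM at day 2 (log2 fold change 7.22, SE 0.38, adjusted p = 5.28e-07). Its size rests on the few day 0 counts, and was 6.25 without day 0 replicate 1 and 11.85 without replicate 2. ZNF503, a zinc finger corepressor, had 4 counts in each day 0 library and 34 and 32 at day 2 (log2 fold change 3.78, SE 0.56, adjusted p = 0.000474). NKX2-5, the cardiac homeobox factor, had 8 and 16 counts at day 0 and 6 and 4 at day 2 (adjusted p = 0.666).

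In RNA of the extracellular matrix list, 6 of 24 genes tested were called higher (25%, against 5.26% of all genes) and none lower (against 3.11%). At 5% FDR 11 rose, 2 fell and 11 did not pass. TNC (tenascin C) went from 1.56 and 1.13 to 26.5 and 30.8 CPM (log2 fold change 4.40, SE 0.27). BGN (biglycan) was the other rise from a low level, with a log2 fold change of 3.87 (SE 0.56). HAS2, the hyaluronan synthase of early heart cushions, went from 46.5 and 43.9 to 346 CPM in each day 2 library (2.94, SE 0.17). The remaining calls were collagens: COL5A1 (3.34), COL6A1 (3.06) and COL6A2 (2.56). VCAN (versican), which binds hyaluronan, fell from 720 and 723 to 393 and 399 CPM (-0.87, SE 0.16), and LAMC1, a laminin chain, from 223 and 204 to 170 and 175 CPM, a fall that missed 5% FDR without any 1 of the 4 libraries (adjusted p from 0.0858 to 0.237) and with library totals alone.

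Cardiac transcription factors were split at day 2. Of 14 tested, 6 were called higher (GATA6, TBX20, GATA4, ISL1, SMARCD3 and HAND2) and 2 lower (MYOCD and MEF2C). GATA4 went from 0.73 and 0.717 to 20.4 and 23.4 CPM (log2 fold change 4.91, SE 0.26, adjusted p = 5.2e-07), and TBX20, a T-box factor of the heart, from 0.104 and 0.102 to 4.58 and 3.49 CPM (5.26, SE 0.38). ISL1, of the second heart field, went from 0.391 and 0.102 to 1.90 and 2.43 CPM (3.08), a value that was 4.29 without day 0 replicate 1 and 2.41 without day 0 replicate 2. These genes were low at day 0 and higher in both day 2 libraries. MEF2C, a MADS box factor of muscle, was at 8.61 and 8.78 CPM at day 0 and at 1.07 and 1.37 CPM at day 2 (log2 fold change -2.88, SE 0.27). MYOCD (myocardin), the coactivator of smooth and cardiac muscle genes, had 104 counts at day 0 and 4 at day 2, all in replicate 1 (-3.92, SE 0.68, and -8.18 without that library). HAND2, called on 4 and 12 counts, missed 5% FDR without any 1 library but day 2 replicate 2.

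Of 16 sarcomere genes tested none was called higher or rose, against 5.26% and 21% of all genes, so few were to be found at those shares. MYL4 and MYBPC3 were called lower from levels under 0.4 CPM (12.5% of the list, against 3.11% of all genes). The list's summed level was 163 and 180 CPM at day 0 and 176 and 178 CPM at day 2, most of it from TPM1 (tropomyosin), at 108 and 113 CPM and then at 107 and 106 CPM (adjusted p = 0.787), and TTN (titin), at 44.3 and 51.9 CPM and then at 56.8 and 63.3 CPM (adjusted p = 0.088). TNNT2 (cardiac troponin T) was at 0.496 and 0.41 CPM and then at 0.258 and 0.374 CPM (adjusted p = 0.418), and MYL7, the atrial light chain, at 1.12 and 1.31 CPM and then at 1.07 and 0.872 CPM (adjusted p = 0.525). MYL4 had 26 counts at day 0 and 3 at day 2, a ratio of 5.27 (95% exact interval 1.61 to 27.2), and its call was lost without day 2 replicate 2 (adjusted p = 0.107), its fall missed 5% FDR without either day 0 library, and its log2 fold change of -2.32 was -6.19 without day 2 replicate 1. MYBPC3 had a day 0 mean of 0.0645 CPM and no count at day 2 (adjusted p = 0.0628), a call lost without day 0 replicate 2 or either day 2 library (adjusted p from 0.152 to 0.293).

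Markers of other cells that the culture could hold were read as a check of the day 2 label. Of 15 neural ectoderm genes tested 2 were called higher and 2 lower (13.3% each, against 5.26% and 3.11% of all genes). PAX6, of neural ectoderm, went from 4.85 and 3.97 to 0.161 and 0.374 CPM (log2 fold change -4.17, SE 0.48), and SOX3 from 5.61 and 6.56 to 0.258 and 0.623 CPM (-3.91, SE 0.45). Without day 2 replicate 1 these values were -3.56 and -3.29, and without day 2 replicate 2 the SOX3 value was -4.54. The neural genes called higher were OTX2, given above, and OTX1, with no count at day 0 and 23 at day 2 (at least 6.72-fold higher). SIX3, a forebrain gene, also rose (1.82), from a mean of 5.80 to 20.5 CPM, while SOX1 fell (-1.94), though not without any 1 of the 4 libraries (adjusted p from 0.0527 to 0.139). At 5% FDR 5 neural genes rose and 7 fell, and the list's median log2 fold change was -0.42. The summed level of the neural list was 571 and 547 CPM at day 0 and 816 and 843 CPM at day 2. Most of the rise in this sum came from OTX2, which is also a gene of the anterior streak.

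Of 14 vascular and blood progenitor genes tested, 3 were called higher (APLNR, PDGFRA and LMO2) and 2 lower (TAL1 and GATA2). PDGFRA, a receptor of cardiac and paraxial mesoderm, went from 5.14 and 5.02 to 392 and 405 CPM (log2 fold change 6.29, SE 0.13, adjusted p = 2.34e-09), and APLNR, the apelin receptor of early mesoderm, from 0.365 and 0.256 to 74.4 and 87.3 CPM (8.00, SE 0.21). KDR, the VEGF receptor with which PDGFRA marks cardiac progenitors, was at 300 and 278 CPM at day 0 and at 209 and 199 CPM at day 2 (-0.50, SE 0.11, adjusted p = 0.00548), a fall that missed 5% FDR without day 0 replicate 1 or day 2 replicate 2 (adjusted p = 0.0586 and 0.0589). Some markers of formed vessels and blood were near 0: PECAM1 was at means of 0.0389 and 0.0323 CPM, CDH5 had 7 counts at day 0 and none at day 2, and GATA1 had none in any of the 4 libraries. RUNX1, another blood marker, instead rose by 1.74 on the log2 scale, a value that ran from 1.38 to 2.19 with 1 library left out. TIE1, a vessel marker, did not pass 5% FDR (log2 fold change -1.80, from -2.44 to -1.12 with 1 library left out). TAL1, a blood factor, had 65 counts at day 0 and 1 at day 2, a ratio of 39.5 (95% exact interval 6.84 to 1584), with a log2 fold change of -5.04 that was -7.50 without day 2 replicate 1. GATA2, of blood and trophoblast, went from 3.81 and 2.87 to 0.581 and 0.685 CPM (-2.42, SE 0.38).

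Of 9 trophoblast and amnion genes tested 2 were called lower (KRT7 and GATA2) and 1 higher (TFAP2A), the latter on 1 and 6 counts (adjusted p = 0.0842). These are 22.2% and 11.1% of the list, against 3.11% and 5.26% of all genes. The TFAP2A call was lost without day 0 replicate 1, day 0 replicate 2 or day 2 replicate 2, with adjusted p of 0.282, 0.101 and 0.372. KRT7, a keratin of simple epithelia, went from 2.14 and 2.77 to 0.387 and 0.125 CPM (-3.06, SE 0.48, and -4.26 without day 2 replicate 1). GATA3 had 30 counts at day 0 and 7 at day 2 (adjusted p = 0.144), all 7 in replicate 1, without which its fall passed the test. The summed level of this list went from 41.0 and 38.9 CPM at day 0 to 14.6 and 15.3 CPM at day 2. Of 42 HOX and CDX genes, which pattern the trunk, 34 had too few counts to test, none rose, and HOXB3 was called lower on 41 and 4 counts (log2 fold change -2.60, adjusted p = 0.043). The HOXB3 call was lost without day 0 replicate 1 (-1.57, adjusted p = 0.259) or day 2 replicate 2 (-2.01, adjusted p = 0.16), and the fall missed 5% FDR without day 2 replicate 1 (-6.84, adjusted p = 0.0747).

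Notch genes and retinoic acid genes each held a few large changes among many small ones. DLL3, a ligand of the presomitic mesoderm that blocks Notch from within the cell, went from 2.32 and 2.18 to 18.6 and 20.9 CPM (log2 fold change 3.13, SE 0.35), and LFNG, a sugar transferase that modifies Notch, from 4.38 and 4.66 to 28.1 and 30.8 CPM (2.70, SE 0.20). HEY1, a Notch target, went from 8.71 and 7.91 to 0.936 and 1.37 CPM (-2.90, SE 0.35), while HES1, another target, rose by 1.82. The receptors and other ligands moved less, with JAG1 down by 1.35, and of 18 Notch genes tested DLL3, LFNG and HEY1 were the 3 called. That is 11.1% called higher and 5.56% lower, against 5.26% and 3.11% of all genes. Among 16 retinoic acid genes, CYP26A1, which degrades retinoic acid, went from 3.57 and 4.53 to 620 and 668 CPM, a 159-fold rise (log2 fold change 7.31, SE 0.17, adjusted p = 2.8e-09). DHRS3, which returns retinaldehyde to retinol, was the gene called lower, from 4.75 and 6.17 to 0.42 and 0.997 CPM (-3.08, SE 0.36, from -3.69 to -2.46 with 1 day 2 library left out). ALDH1A2, the enzyme that makes retinoic acid in mesoderm, had 8 counts at day 0 and 9 at day 2.

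Metabolic genes changed by smaller amounts and in larger numbers. Of 29 genes of cholesterol and fatty acid synthesis 23 fell, 1 rose and none was called, with a median log2 fold change of -0.71, against 23.1% of all genes that fell. HMGCS1, of the mevalonate pathway, went from 898 and 894 to 456 and 429 CPM (-1.02, SE 0.19), ACACA, of fatty acid synthesis, from 378 and 395 to 163 and 158 CPM (-1.27, SE 0.13), and the desaturase SCD from 883 and 862 to 384 and 392 CPM (-1.17, SE 0.16). These 3 fell to similar extents in both day 2 libraries. The gene that rose was FADS1, a fatty acid desaturase (0.49, SE 0.10). With library totals alone 22 of the 29 fell and the median was -0.57. The basal medium at day 2 held added lipids and no insulin, and neither was varied on its own.

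Among 28 genes of glycolysis and hypoxia 3 were called lower (SLC2A1, HK2 and ADM), and 15 fell and 6 rose. The glucose transporter SLC2A1 went from 128 and 133 to 27.3 and 26 CPM (log2 fold change -2.29, SE 0.13, adjusted p = 7.73e-07), and hexokinase HK2 from 71.6 and 76.1 to 14.1 and 16.9 CPM (-2.26, SE 0.21). SLC2A3, the other main glucose transporter of ESCs, was at 808 and 802 CPM and then at 629 and 647 CPM (-0.33, adjusted p = 0.0989). PDK1, a kinase that inhibits pyruvate dehydrogenase, rose from 111 and 113 to 362 and 359 CPM (1.69, SE 0.13). ADM was not called without day 0 replicate 1 (-1.99). Of 17 genes of insulin signalling and FOXO targets 3 were called higher, TXNIP, PDK4 and ARRDC4. TXNIP, an inhibitor of glucose uptake, went from 6.68 and 8.86 to 179 and 169 CPM (4.48, SE 0.15, adjusted p = 4.05e-08), and its relative ARRDC4 rose by 2.32. PDK4 had 4 counts at day 0 and 41 at day 2, and its log2 fold change of 3.93 was 2.99 without day 0 replicate 1 and 7.45 without replicate 2. IRS2, an insulin receptor substrate that FOXO factors induce, rose by 1.05 (adjusted p = 0.00844, but 0.0654 and 0.0526 without day 0 replicate 1 and day 2 replicate 2), whereas SESN1, also a FOXO target, fell by 0.65 (adjusted p = 0.0107, and from 0.0505 to 0.0811 with 1 library left out). FOXO1 itself fell by 1.18.

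Cell cycle genes fell as a group but not far. Of 34 tested 27 fell (79.4%, against 23.1% of all genes), 1 rose and only MYC was called, with a median log2 fold change of -0.82 that was -0.67 with library totals alone, where 23 fell. Replication genes such as MCM4 (-1.14) and CDC6 (-1.24) fell, as did CCND3, cyclin D3 (-1.86, SE 0.23), which passed the 4-fold threshold without day 2 replicate 2 (-2.04). CCND2, cyclin D2, was at 481 and 489 CPM and then at 455 and 461 CPM (-0.08, adjusted p = 0.478), and the direction turned with library totals alone (0.06). BUB1, of the spindle checkpoint, rose from 266 and 261 to 390 and 386 CPM (0.56, SE 0.11). Of 7 DNA methylation genes 5 fell and 1 was called higher. DNMT3B, the de novo methyltransferase of ESCs, went from 1263 and 1207 to 403 and 421 CPM (-1.58, SE 0.15), and TET1, which oxidizes methylcytosine, fell by 0.74. TET2, of the same family, went from 5.76 and 5.10 to 32.7 and 32.6 CPM (2.59, SE 0.11, adjusted p = 1.85e-07).

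Of 18 stress genes 4 rose and 8 fell, 2 of each by enough to be called. The amino acid response genes ASNS, asparagine synthetase, and CHAC1, which degrades glutathione, went from 241 and 244 to 38.8 and 44.2 CPM (-2.55, SE 0.16) and from 17.7 and 16.2 to 2.42 and 2.12 CPM (-2.89, SE 0.30). IFIT2, of the interferon response, went from 0 and 0.102 to 17.7 and 16.8 CPM (8.26, SE 0.50, and from 7.32 to 11.78 with 1 day 0 library left out), and IFIT1 rose by 2.80. Other interferon genes did not follow: IFIT3 was at means of 0.827 and 1.75 CPM (adjusted p = 0.0777), ISG15 at 6.69 and 7.59 CPM (adjusted p = 0.616), and MX1 fell by 1.59 (adjusted p = 0.0262), though not without any 1 of the 4 libraries (adjusted p from 0.051 to 0.245).

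**Figure D3:**
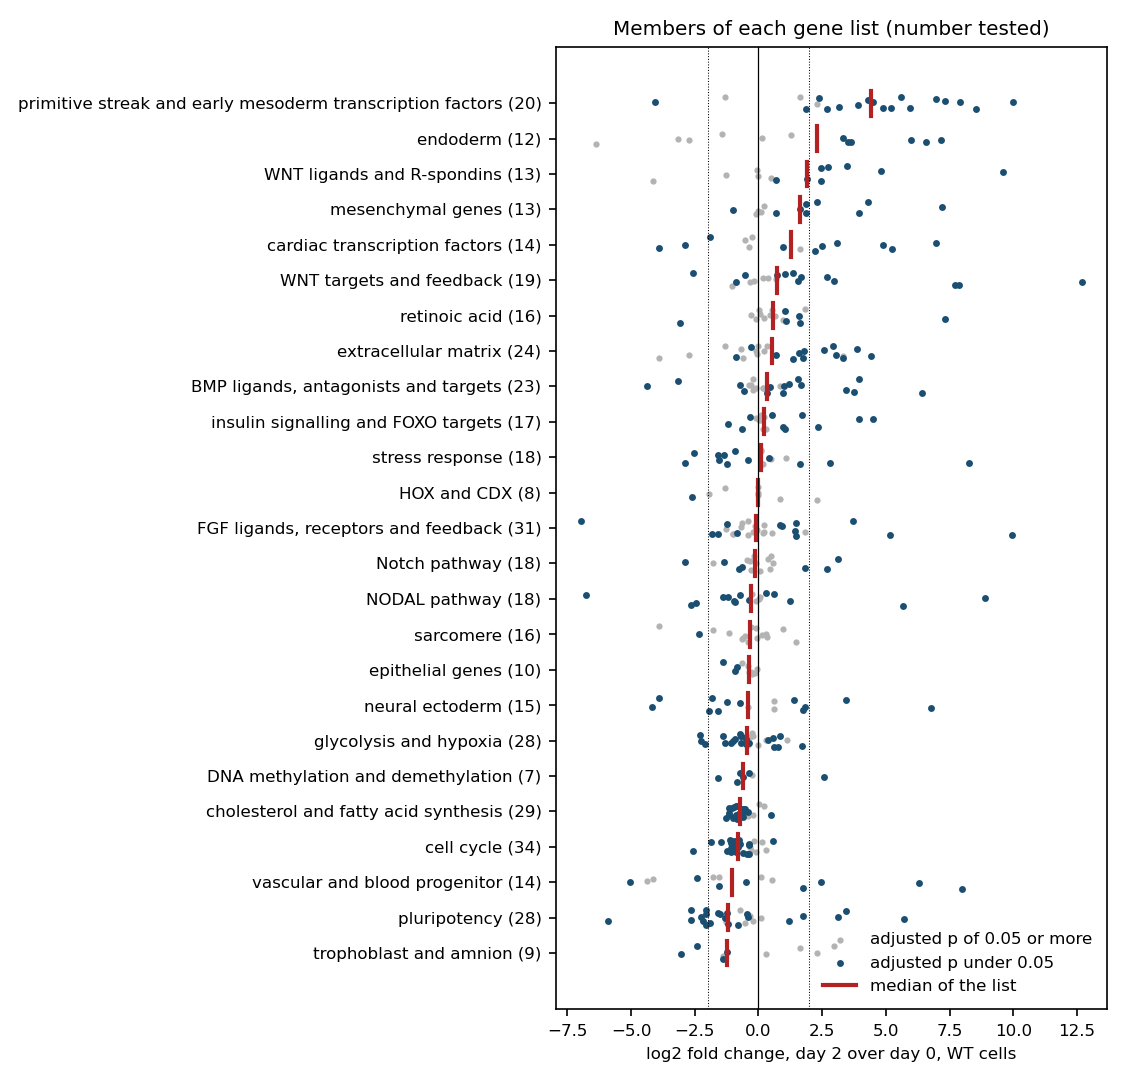
Log2 fold change of every tested member of 25 gene lists (rows, with the number tested), ordered by the list's median (red bar), with members that passed 5% FDR in dark blue and dotted lines at 4-fold. The list of primitive streak and early mesoderm transcription factors has its median at 4.40, while cell cycle and cholesterol genes sit in narrow bands below 0 with medians of -0.82 and -0.71.

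Over all genes, the 10 largest rises with a day 2 mean of at least 5 CPM were DKK4, ASB5, TBR1, FGF17, ANGPT2, CER1, LHX1, LINC01124, IFIT2 and KCNV1. ASB5, which has ankyrin repeats and a SOCS box, had no count at day 0 and was at 18.9 and 18.7 CPM at day 2, at least 242-fold higher. TBR1, a T-box gene related to EOMES, had none and was then at 5.33 and 5.85 CPM, at least 72.1-fold higher. ANGPT2, a ligand of the TEK receptor, went from 3 counts to 1892, a ratio of 1038 (95% exact interval 355 to 5037). The noncoding LINC01124 lies on chromosome 2 from 171568961 to 171571077, just upstream of SP5 (171571847 to 171574588), and had 2 counts at day 0 and 520 at day 2, a ratio of 428 (118 to 3542). KCNV1, a modifier of potassium channels, went from 0.104 and 0.358 to 70.8 and 72.7 CPM (log2 fold change 8.24, and from 7.62 to 9.35 with 1 day 0 library left out). With 1 day 0 library left out the fitted log2 fold change ran from 8.95 to 13.02 for ANGPT2 and from 7.59 to 11.15 for LINC01124. All of these were low in each day 0 library, and apart from CER1 (314 counts at day 0) and LHX1 (62 counts) their folds rest on few day 0 counts.

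The 10 largest falls were JAKMIP2-AS1, CDH6, C6orf141, TRIML2, ANGPT1, MGAT4C, LHX4, IDO1, HES3 and SCN9A. JAKMIP2-AS1, an antisense RNA, was at 10.1 and 11.7 CPM at day 0 with no count at day 2, at least 76.9-fold lower, and CDH6, a cadherin, at 8.45 and 6.89 CPM with none at day 2, at least 54.1-fold lower. TRIML2 went from 67.3 and 64.4 to 0.387 and 0.374 CPM (log2 fold change -7.41, SE 0.32), and ANGPT1, the angiopoietin that activates TEK, from 22.5 and 21.8 to 0.0646 and 0.249 CPM. The 2 angiopoietins thus changed in opposite directions in the same libraries. SCN9A, a sodium channel, went from 29.0 and 28.7 to 0.484 and 0.623 CPM (-5.74, SE 0.25), and IDO1, which degrades tryptophan, from 12.6 and 10.8 to 0.258 and 0.0623 CPM. The sizes rest on few day 2 counts: with 1 day 2 library left out, the log2 fold change was as low as -11.20 for C6orf141, -8.33 for ANGPT1, -7.46 for IDO1 and -6.80 for HES3.

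WT cells at day 6 are set beside these values with no test, since the later comparison shares the day 2 libraries. Several streak genes were far below their day 2 level: EOMES was at 11 CPM in each day 6 library, LHX1 at 6.58 and 6.73 CPM, TBXT at 0.305 and 0.428 CPM and CER1 at 1.18 and 1.28 CPM. DKK4 had fallen to 0.0871 and 0 CPM, FGF17 to 0.697 and 0.238 CPM and CYP26A1 to 1.87 and 2.14 CPM. Others were instead above their day 2 level. GATA4 was at 120 and 127 CPM at day 6, TBX20 at 267 and 194 CPM, ZEB2 at 97.3 and 93.0 CPM and PDGFRA at 943 and 810 CPM. Some genes that were lower at day 2 were high at day 6: MEF2C was at 1117 and 796 CPM, VIM at 1641 and 1569 CPM and MYOCD at 551 and 399 CPM. TNNT2, under 0.4 CPM at day 2, was at 1422 and 1134 CPM. NANOG, at 0.218 and 0.285 CPM, and SOX2, at 2.48 and 2.52 CPM, were below their day 2 levels.

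**Figure D4:**
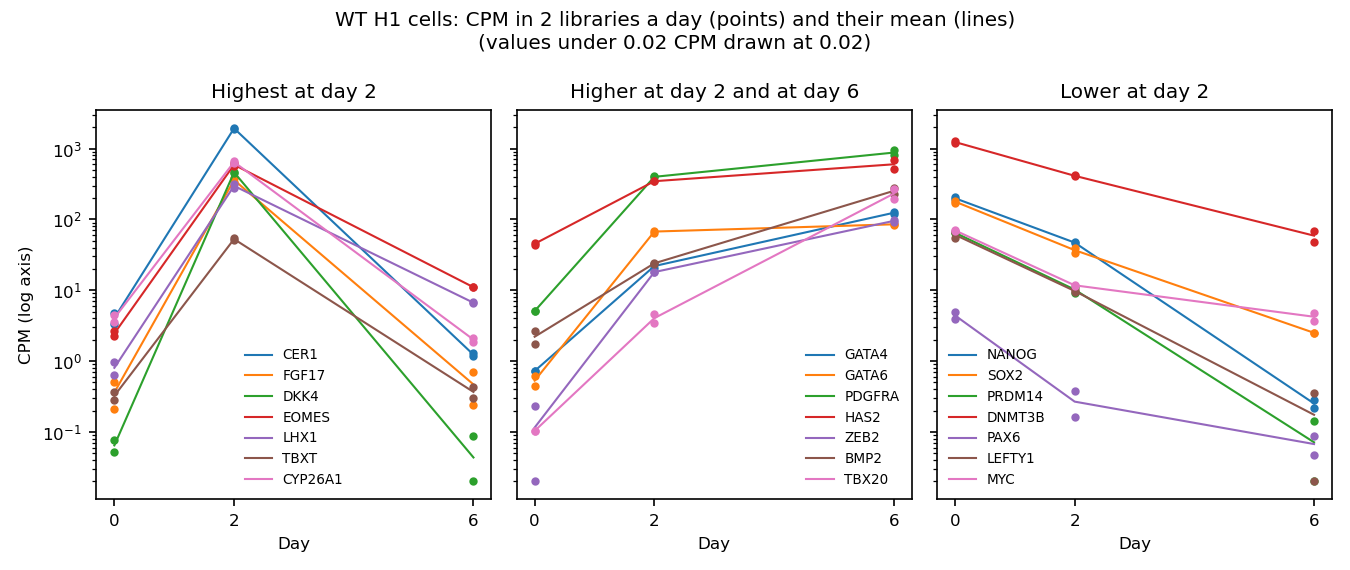
CPM (log axis) of 21 genes in the 2 WT libraries of days 0, 2 and 6 (points) and their mean (lines), in 3 panels. The 7 genes of the left panel peak at day 2 (EOMES near 590 CPM), those of the middle panel are higher at day 6 than at day 2, and those of the right panel go down from day 0 to day 6.

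The same step was read in the 3 shRNA lines from their own libraries, which share none with WT. Of the 906 genes called higher in WT cells, 668 were also called higher in ZEB2 shRNA cells (73.7% of the WT list and 64.0% of that line's), 542 in NKX2-5 shRNA cells (59.8% and 66.9%) and 276 in ZNF503 shRNA cells (30.5% and 68.8%). Of the 535 called lower the counts were 417 (77.9% and 48.4%), 398 (74.4% and 51.5%) and 145 (27.1% and 52.7%). In the lines 5.88%, 4.57% and 2.39% of genes tested were called higher, in the same order, and 4.85%, 4.37% and 1.64% lower. The median log2 fold change of the WT genes called higher was 3.11 in WT and 2.76 in ZEB2 shRNA cells, 3.06 and 2.58 for NKX2-5 shRNA cells, and 2.98 and 1.61 for ZNF503 shRNA cells, each over the genes tested in that line. For the genes called lower the medians were -2.78 and -2.94, -2.74 and -2.85, and -2.74 and -1.41. Since the genes were chosen on the WT values, the medians are a description.

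The difference itself was tested by the interaction of line and day. Of 1396 genes called in WT cells and tested there, the change differed by at least 4-fold at 10% FDR for 377 in ZNF503 shRNA cells (27.0%), for 74 in NKX2-5 shRNA cells (5.30%) and for 35 in ZEB2 shRNA cells (2.51%). In the direction against the WT change were 370, 51 and 25 of these, in the same order. These genes were chosen on WT values that the test also uses, which favours that direction, so these counts too are a description. The count over all genes for ZEB2 shRNA cells, 87, was 54 without WT day 2 replicate 2. Over all 17342 genes tested, 1.27% and 2.13% had a more positive or more negative change in ZNF503 shRNA cells, 0.213% and 0.721% in NKX2-5 shRNA cells and 0.15% and 0.352% in ZEB2 shRNA cells. The lines were sequenced to unlike depths, so levels are set side by side as mean CPM by library totals, without TMM. WNT3A passed the 4-fold and 10% FDR threshold in all 3 lines, with no day 0 count in WT cells and 0.166 CPM in ZNF503, 0.292 in NKX2-5 and 0.138 in ZEB2 shRNA cells. Its day 2 levels were 3.93 CPM in WT, 0.981 in ZNF503, 1.44 in NKX2-5 and 4.40 in ZEB2 shRNA cells. With a group at no count, the size of such a difference depends on the prior count and bounds nothing. GATA6 also passed the threshold in all 3, and the same limit holds for its difference in ZNF503 shRNA cells. It was at 0.525 CPM at day 0 in WT cells, at 0 in ZNF503, 0.0529 in NKX2-5 and 2.25 in ZEB2 shRNA cells, and the day 0 libraries of any 2 of these lines did not overlap. At day 2 it was at 73.8 CPM in WT, 12.3 in ZNF503, 69.2 in NKX2-5 and 71.2 in ZEB2 shRNA cells. On the log2 scale its rise was 3.10 larger than in WT in NKX2-5 shRNA cells and differed by -2.10 in ZEB2 shRNA cells. LHX1 rose less in ZNF503 and ZEB2 shRNA cells, with day 0 levels of 0.795 CPM in WT, 0.357 in ZNF503 and 5.26 in ZEB2 shRNA cells and day 2 levels of 326, 30.1 and 341 CPM. EOMES, TBXT, MIXL1, GSC and DKK4 passed this threshold in no line. The part of the day 0 levels in these differences was not tested.

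**Figure D5:**
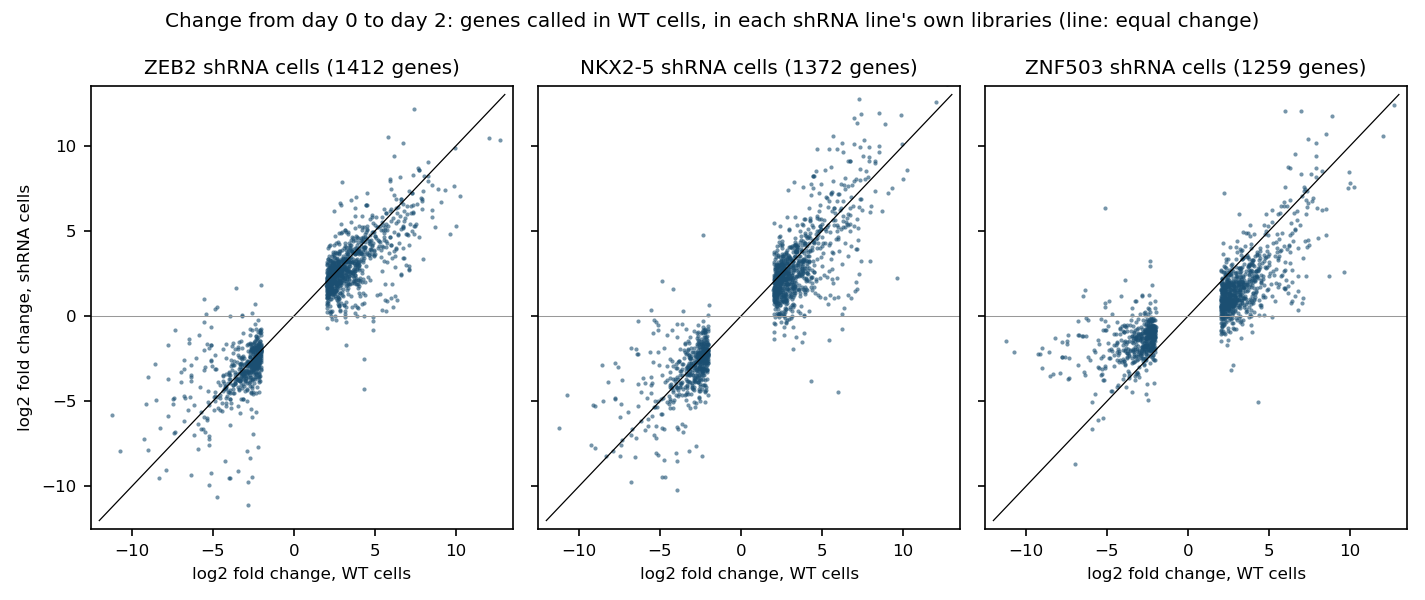
Log2 fold change from day 0 to day 2 of genes called in WT cells (x) and in each shRNA line's own libraries (y), for 1412, 1372 and 1259 genes tested in ZEB2, NKX2-5 and ZNF503 shRNA cells, with the diagonal of equal change. The points lie around the diagonal in ZEB2 and NKX2-5 shRNA cells and mostly nearer to 0 than in WT in ZNF503 shRNA cells.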

How the data were processed

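RNA was sequenced from TruSeq stranded total RNA libraries. The authors aligned reads to hg19 (GRCh37) with TopHat 2.0.14 (Bowtie 2.2.1.0, SAMtools 0.1.19.0 per the labels), keeping 1 best hit with up to 2 mismatches, and deposited raw counts per RefSeq gene region from RSeQC. Whether counting used strand is not given in the sources used here.

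Of 41627 accessions 40281 matched a symbol (97.1% of counts), and the accession with the largest total stood for each of 23185 genes. Of the day 10 columns 4 held 1077 more rows than there are accessions and were not used. Genes passing filterByExpr were tested with edgeR 4.0.16 (R 4.3.3) on 8 WT libraries (TMM, glmQLFit, glmQLFTest), an approach checked on simulated data. The interaction of line and day was fitted in the same way over the libraries of days 0 and 2 of all 4 lines, WT included, and each line's own change on its own libraries. Replicate numbers did not pair the samples: deviations of same-numbered libraries had correlations across genes of 0.00788 for days 0 and 2, 0.00447 for days 0 and 6 and -0.00632 for days 2 and 6.

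The samples, the 26 gene lists and the tests were chosen with earlier results of these data known. Named were the key genes of each list, the 2 largest rises and falls of each list at 5% FDR, and over all genes the 10 largest called rises and falls with a mean of at least 5 CPM on the higher day and libraries that do not overlap. Further members were named where a sentence gives those on one side of a threshold, and some genes are not reported here. SNAI1, CDX4, AFP, TTR, FOXH1, SMAD3, SMAD7, FGF2, FGFR3, SPRY1, ID3, DPPA4, LIN28A, L1TD1, SOX1, SIX3, PECAM1, CDH5, GATA1, RUNX1, TIE1, HES1, CDC6, MCM4, IFIT3, ISG15 and MX1 are list members named after their values were seen.

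Alternatives were other size factors, filters, library sets, rows per gene, thresholds and tests (edgeR's exact test, DESeq2 1.42.0), a replicate block and each library left out.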

Additional observations from a re-analysis of the deposited data

Results flagged for a closer look

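Of the 150 genes named by rule, 43 had a change from day 0 to day 2 that differed from WT by at least 4-fold at 10% FDR in at least 1 shRNA line (edgeR's quasi-likelihood test of the interaction of line and day), which gave 56 differences. Levels are mean CPM by library totals, since the lines were sequenced to unlike depths. They are given as the log2 fold change of the line minus that of WT, so a negative value for a gene that rose in WT cells is a smaller rise or a fall. In 11 of the 56 a line and day had no count in any library, and the size of those differences depends on the prior count and bounds nothing.

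In ZNF503 shRNA cells, some genes that were called higher at day 2 in WT cells rose less or had a negative log2 fold change, with differences of -4.402 for MESP1, -3.889 for TBX6, -3.486 for APLNR, -2.547 for PDGFRA, -2.656 for TBX20, -2.289 for LHX1, -3.255 for DLL3, -2.266 for LFNG and -3.283 for CYP26A1. MESP1, the bHLH factor of cardiac mesoderm, was at 0.787 CPM in that line at day 0 and 0.560 CPM at day 2, against 0.410 and 6.83 CPM in WT cells. Further negative differences were -3.327 for CXCR4, -2.05 for HHEX, -2.99 for BGN, -2.187 for IGF2, -2.029 for KCNV1 and -2.104 for TXNIP. CER1, FOXA2 and SP5 instead had larger fold changes than in WT, with differences of 2.821, 2.903 and 2.248. Their day 0 levels were 0.196, 0.036 and 0.0494 CPM in that line, on 23, 4 and 6 counts, and 4.02, 0.578 and 0.321 CPM in WT cells. At day 2 all of them were lower in that line than in WT, at 682.5, 27.5 and 62.3 CPM against 2111, 62.1 and 85.0 CPM. Genes lower at day 2 in WT cells fell less or rose, with 6.239 for ANGPT1, 5.578 for MGAT4C, 5.392 for LHX4, 4.603 for C6orf141, 4.33 for TAL1, 3.777 for HES3, 3.715 for TRIML2, 3.619 for SCN9A and 3.47 for NKX1-2. Differences were also positive for LEFTY1 (2.885), LEFTY2 (2.891), FGF8 (2.142), HEY1 (2.221), MYL7 (3.342) and MYOCD (2.407). Of these, FGF8 and MYL7 had not passed 5% FDR in WT cells, with log2 fold changes of -0.67 and -0.29. MYL7 was at 0.0764 CPM in that line at day 0, on 10 counts, and at 0.723 CPM at day 2. In WT cells MYL7 was at 1.20 and 1.06 CPM. Where a group had no count, the fitted differences were 10.62 for JAKMIP2-AS1, 9.477 for CDH6, 7.028 for FGF16, 5.115 for GATA6, -6.162 for OTX1 and -7.865 for WNT3A.

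In NKX2-5 shRNA cells the endoderm genes SOX17 and FOXA2 had larger fold changes than in WT, by 4.145 and 2.508. Their day 0 levels were 0.0164 and 0.14 CPM in that line, on 2 and 13 counts, and 0.386 and 0.578 CPM in WT cells. Their day 2 levels were 58.8 and 75.0 CPM in that line and 61.8 and 62.1 CPM in WT cells. CER1 rose more by 2.394, with log2 fold changes of 8.89 in WT cells and 11.29 in the line. The fold change of GATA6 was larger by 3.1, with day 2 levels of 69.2 CPM in the line and 73.8 CPM in WT cells. MESP1 differed by -4.929, with 0.453 CPM in that line at day 0 and 0.237 CPM at day 2, TBX6 by -2.865, TNC by -2.923 and SNAI2 by -2.046. With no count in a group, the fitted differences were 6.904 for CDH6, -6.579 for OTX1 and -8.287 for WNT3A.

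In ZEB2 shRNA cells DKK1, LHX1, TNC and GATA6 rose less than in WT, by differences of -3.04, -2.618, -2.329 and -2.102. All 4 were higher in that line than in WT cells in each day 0 library. The day 0 means were 0.378 against 0.115 CPM for DKK1 and 5.26 against 0.795 CPM for LHX1. For TNC they were 4.21 against 1.33 CPM and for GATA6 2.25 against 0.525 CPM. At day 2 DKK1 and TNC were lower in that line than in WT cells, at 10.54 against 27.81 CPM and 19.02 against 31.41 CPM. LHX1 was at 341.1 against 325.5 CPM and GATA6 at 71.24 against 73.78 CPM, both with overlapping day 2 libraries. The part of the day 0 levels in the 4 differences was not tested. JAKMIP2-AS1 and WNT3A, with a group at no count, had fitted differences of 6.364 and -5.557.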

How the results depend on the processing

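Under every alternative but 1 the counts called, 906 higher and 535 lower, stayed within 1.5 times, at 711 to 1015 and 405 to 600, and with 1 library left out at 817 to 886 and 494 to 536. With 8-fold and 1% FDR 401 were higher and 180 lower. At 5% FDR with no fold threshold the main fit had 3607 genes higher and 3983 lower. The 4 libraries of days 0 and 2 alone gave 5153 and 5127, the exact test 5326 and 5256, and DESeq2 3367 and 4256. At 5% FDR the counts with 1 library left out were 2201 to 2415 higher and 2577 to 2695 lower, where a group of 1 library is assumed to vary like the others. The 87 differences between WT and ZEB2 shRNA cells became 54 to 67 with 1 WT library left out. Of list members called, sarcomere went from 2 to 1 with library totals alone, with the 4 libraries only, in 1 fit of all libraries, in the exact test and in DESeq2, and to 0 to 3 with 1 library left out. HOX and CDX went from 1 to 0 with the 4 libraries only and in the exact test, to 3 in 1 fit of all libraries and to 0 to 2 with 1 library left out, and cell cycle to 1 to 2. Over the 150 named genes and these alternatives 2016 values kept direction and side of 5% FDR, 34 lost it, 19 gained it and 14 turned direction, none of the last past the test.

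With library totals alone the log2 fold change turned to 0.1057 for CDH1, 0.05051 for ACTC1, 0.03715 for DLL1, 0.06359 for CCND2 and 0.0754 for LAMA1. With 1 library left out the values ran from -0.01087 to 0.3608 for TCF7L1, -0.1146 to 0.01681 for CDH1, -0.2929 to 0.124 for ACTC1, -0.006594 to 1.435 for ETV2, -0.2418 to 0.01697 for DLL1, -1.227 to 0.03511 for HES7, -0.09685 to 1.906 for ALDH1A2 and -0.9368 to 0.02225 for NKX2-5. The cause was not tested.

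The replicate block was fitted on the WT libraries of days 0, 2 and 6, without those of day 10. In that fit 928 genes were called higher and 537 lower, and 4485 and 4602 passed 5% FDR. The parts of the block and of the dropped day 10 libraries in these counts were not separated. FGF8, DUSP6 and SLC2A3 then passed it and HOXB3 did not (adjusted p = 0.0541). The numbers share no pairing that the data show.

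Depth limits genes near 0, where no count in a group allows up to 0.0775 CPM at day 0 and 0.142 CPM at day 2. With 2 libraries a day the tests cover the spread between these libraries.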

Other observations

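Metallothioneins, small proteins that bind zinc and copper, were in none of the lists and were noticed after the values were seen. Of 15 genes with a metallothionein symbol 6 had too few counts to test, and the 9 tested were called lower, against 3.11% of all genes, with log2 fold changes from -5.25 to -2.51. MT1G went from 31.9 and 38.3 to 0.904 and 0.934 CPM (log2 fold change -5.25, SE 0.28, adjusted p = 5.97e-07 by edgeR). MT1H went from 14.8 and 16.4 to 0.71 and 0.187 CPM (-4.93, SE 0.45), and MT1E from 30.3 and 36.0 to 2.39 and 1.06 CPM (-4.17, SE 0.31). Each was lower in both day 2 libraries than in either day 0 library. These genes are close relatives on chromosome 16, so how their reads were split is uncertain. At day 6 MT1G was at 0.131 and 0.0475 CPM, MT1H had no count, and MT1E was at 2.79 and 2.95 CPM.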
